A study of Homo sapiens with 2 samples.

Results

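The conserved part of domain II of human 28S rRNA, the longest RNA of the ribosome's large subunit, was examined for what came down with a ZAKα construct. It was taken as positions 1312 to 2090 of 28S, as numbered in the deposited table, which is 779 of the 5070 positions of 28S and of the 6940 positions of 18S and 28S together. The range was fixed by position, and the domain name is approximate. U2OS cells, a line from a human osteosarcoma, gave the 2 pull-down libraries, 1 with the bait labelled ZAK-alpha-RBR and 1 a mock. The labels do not say what the mock was, how the construct was expressed or whether the cells were stressed. Both were CLIP-seq libraries, in which RNA fragments recovered with a protein are sequenced. The rRNA genes lie in many copies in the genome, so no chromosome position is given.

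ZAKα is the long isoform of the kinase MAP3K20, which starts the stress signal of stalled or colliding ribosomes, and the series deals with how the kinase finds those ribosomes. Domain II of the large subunit RNA reaches to the base of the ribosomal stalk. There a compact fold of hairpins, the GTPase-associated centre, binds the protein uL11, while uL10 (P0) anchors the stalk proteins that recruit translational GTPases such as the elongation factors. The same domain holds the A-site finger, a long helix that reaches over the A-site tRNA toward the small subunit. The stalk is also known as an activator of another stress kinase, GCN2.

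The range contained the GTPase-associated centre. It was located by short conserved motifs, from GGCCAUG to ACUCACC, and each of these occurred once on 28S. The segment lies at positions 1974 to 2018 and is shown because it is the landmark for which the domain is best known. It runs from motif to motif and may leave out part of the fold, since stems predicted below pair it with positions before 1974. Capitals mark AUGGAAG at 1978 to 1984 and GUGUAAC at 2004 to 2010, the conserved loops of its pair of hairpins.
GTPase-associated centre: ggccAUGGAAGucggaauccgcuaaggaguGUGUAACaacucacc

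The stretches in which the libraries differed most are shown next, because the results below turn on them. Capitals mark each C followed by A, a step at which the coverage of the ZAK-alpha-RBR library often jumped. The first of the sequences was the only stretch called higher with ZAK-alpha-RBR and the others were called lower.
28S 1627 to 1637: cgaaagacuaa
28S 1336 to 1345: gagucuaaCA
28S 1378 to 1401: ccguggcgCAaugaaggugaaggc
28S 1489 to 1501: gagguggagCAcg
28S 1708 to 1719: CAcccccgcCAc
28S 1770 to 1797: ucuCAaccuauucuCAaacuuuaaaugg
28S 1861 to 1874: uugguaagCAgaac
28S 2013 to 2030: cuCAccugccgaauCAac

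Domain II was well covered in both libraries. The coverage at a position is its read depth, the number of reads that cross it. The depth in the range had a median of 935 reads per position with ZAK-alpha-RBR and 13281 in the mock. Its lowest values were 49 and 1019 reads, so no position was without coverage. The mock library was 11.5-fold deeper in total, and the ZAK-alpha-RBR values therefore carry the larger counting error. Levels are given in ppm, the depth per 1000000 of the library's summed coverage of 18S and 28S. A log2 ratio sets ZAK-alpha-RBR over the mock after 1 ppm was added to each, while folds carry no added value. With 1 library of each kind there was no replicate check, no test between groups was made, and intervals are 95% intervals of read counting only. How duplicates of a molecule were treated is not given. If they count as separate reads, these intervals may be too narrow.

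Per position, domain II was covered more deeply than the rest of 28S in both libraries, but its share was smaller with ZAK-alpha-RBR. The mean level was 158 ppm with ZAK-alpha-RBR and 183 ppm in the mock, against 121 and 123 ppm over the other 4291 positions of 28S. Domain II makes up 15.4% of 28S and held 19.1% of its coverage with ZAK-alpha-RBR (exact binomial interval 17.95 to 20.4) and 21.2% in the mock (20.9 to 21.6). Both intervals assume the fewest reads that the depth allows. The log2 ratio of these shares was -0.15, and the opposite ends of the 2 intervals gave limits of -0.27 and -0.03. The log2 ratio was -0.06 when the range was widened by 50 positions at each end. The widening takes in a neighbouring region that was higher with ZAK-alpha-RBR.

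The mock level was the higher one over most of domain II. It led at 526 of the 779 positions (67.5%), compared with 39.2% of the positions in the rest of 28S and 50.7% of those of 18S. The median log2 ratio was -0.22 in domain II and 0.23 in the rest of 28S, and it was 0.15 over the whole molecule. The rest of 28S pools unlike parts, and some stretches of it were lower too, as the bins below show. The quartiles of the domain II ratios lay at -0.74 and 0.15, those of the rest at -0.35 and 0.66. The low tail was no longer here than elsewhere: the lowest 5% began at -1.49 in domain II and at -1.59 in the rest of 28S. The highest 5% began at 0.85 and 1.20, so positions of high ratio were scarcer here.

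**Figure D1:**
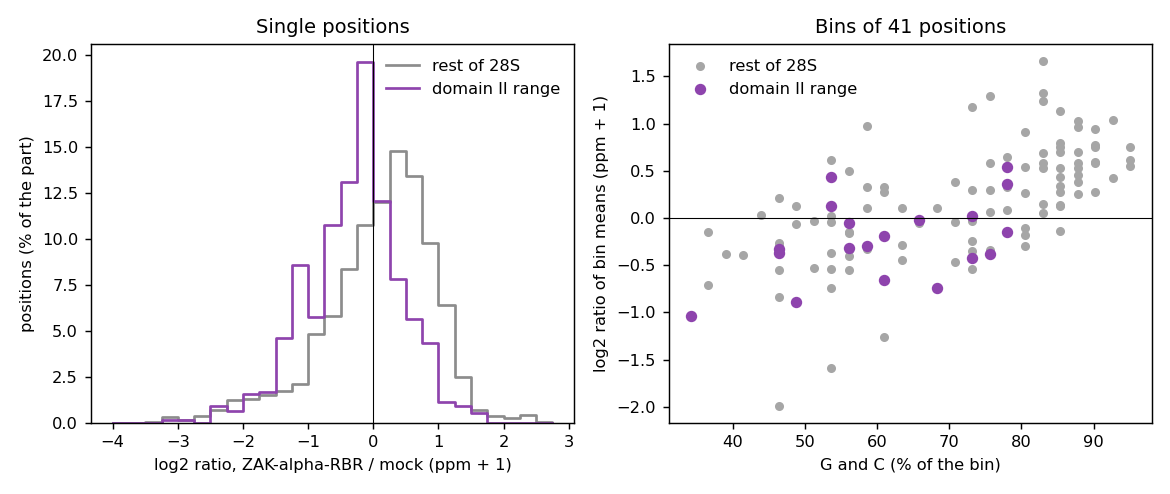
Left, the share of positions (%) by log2 ratio of ZAK-alpha-RBR over mock, for the domain II range and the rest of 28S. Right, the log2 ratio of bin means against the share of G and C (%) in bins of 41 positions, each point 1 bin. The domain II curve lies to the left, with a median of -0.22 against 0.23, and 14 of its 19 bins lie below 0.

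Positions past a 2-fold limit were counted next. In domain II, 20 positions (2.57%) lay at least 2-fold above the mock, where the background over all of 28S was 9.49%. At least 2-fold lower were 142 positions (18.2%), against a background of 10.7%. On 18S, 8.82% of positions were at least 2-fold higher and 15.2% at least 2-fold lower. At a 4-fold limit there were 0 higher positions, with a background of 0.611%, and 14 lower positions (1.80%), with a background of 2.58%. Neighbouring positions share reads and are not separate events: the 20 higher positions formed 2 runs and the 142 lower ones 12 runs.

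**Figure D2:**
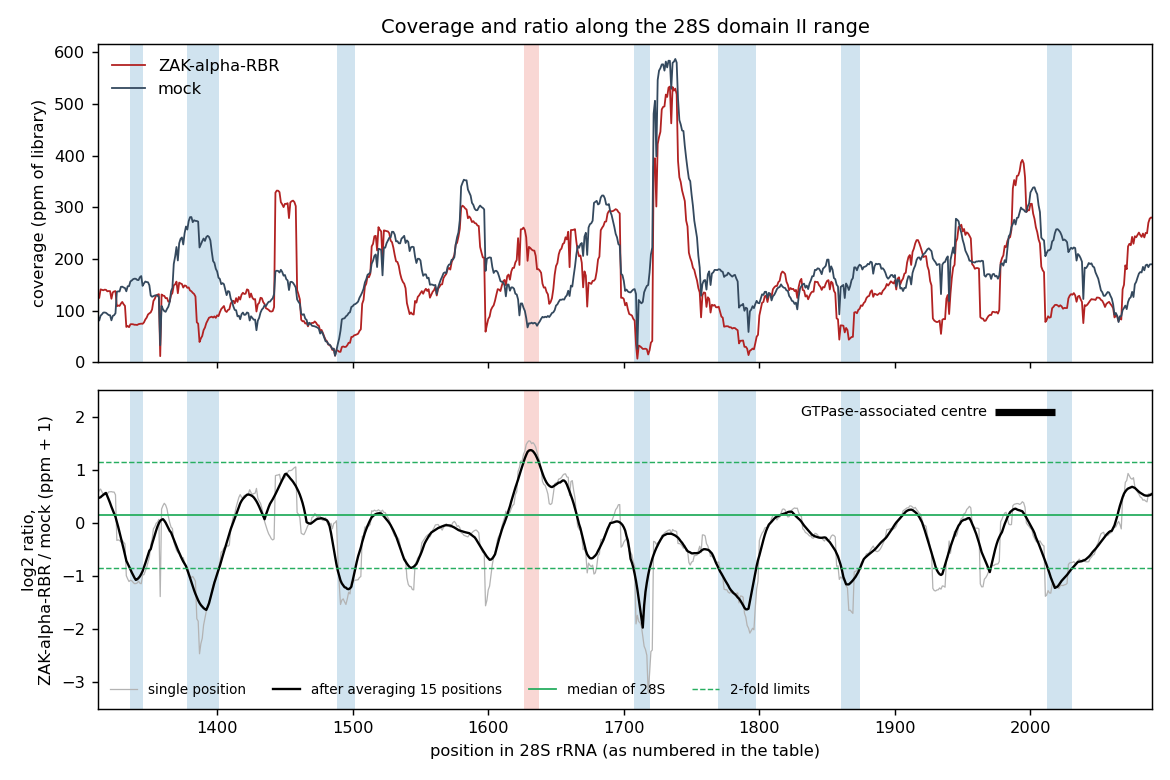
Top, coverage (ppm of the library) of ZAK-alpha-RBR and mock at each position of the range. Bottom, the log2 ratio at single positions and after averaging over 15 positions, with the median of 28S and the 2-fold limits; blue marks the 7 lower regions, red the higher one, and the black bar the GTPase-associated centre. The largest peak, near position 1734, is of similar height in both libraries (534 and 583 ppm).

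Averaging over bins of 41 positions, which divide the range exactly into 19, located the differences. The ZAK-alpha-RBR level was the higher one in 5 of the 19 bins, and in 64 of the 103 such bins elsewhere on 28S. In the other 39 of those 103 the mock level was the higher one, so a lower level was not particular to domain II. They include neighbouring bins at 4551 to 4591, 4592 to 4632 and 4633 to 4673, with log2 ratios of -0.70, -0.74 and -0.55. Within domain II, the highest ratio was in the bin at 1435 to 1475, with 177 ppm against 122 in the mock, and a log2 ratio of 0.54. Next came the bin at 1599 to 1639 with 175 against 129 ppm (0.44) and the last bin, 2050 to 2090, with 178 against 139 ppm (0.36). The lowest was the bin at 1763 to 1803, with 68.7 against 142 ppm, a log2 ratio of -1.04. The bin at 2009 to 2049, which holds the 3' end of the GTPase-associated centre, had 115 against 214 ppm (-0.89). The bin at 1353 to 1393 had 117 against 197 ppm (-0.74).

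The share of G and C moved with the bin ratios. It was 61.4% of bases in domain II and 70.8% in the rest of 28S. Across the 19 bins of domain II the correlation of G and C content with the log2 ratio was 0.47, and across the 103 other bins it was 0.63. The bin with the lowest ratio, at 1763 to 1803, also had the lowest share of G and C, 34.1%. The median log2 ratio was -0.29 in the bins of domain II. It was -0.06 in the 59 bins elsewhere on 28S whose G and C content lay in the span of these bins. The part of base composition in the lower level of domain II was not tested.

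A single stretch of domain II was called higher with ZAK-alpha-RBR. For the calls, each profile was first smoothed over 15 positions, and the ratio had to be at least 2-fold from the median ratio of 28S for no fewer than 10 consecutive positions. The region at 1627 to 1637 had a mean of 214 ppm with ZAK-alpha-RBR and 77.8 in the mock, 2.76-fold apart. Its depth was 1232 to 1751 reads with ZAK-alpha-RBR and 5334 to 7843 in the mock, and all 11 positions were on the higher side. The averaged ratio peaked at A1631, with 1514 against 5939 reads, a 2.94-fold difference (2.77 to 3.11). The largest single ratio of the domain was next to it at A1630, 2.95-fold (2.79 to 3.12). The mock level of the region was below that library's domain mean of 183 ppm, and the ZAK-alpha-RBR level was above its own mean of 158 ppm. Regions called higher took up 3.45% of 28S and 1.41% of domain II. The region was not called with averaging over 31 positions, with a 3-fold limit or with a minimum of 20 positions.

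Other stretches stood above the mock without meeting the region rule. At 1442 and 1443 the ZAK-alpha-RBR depth went from 733 to 2245 reads between a C and the A after it, where the mock went from 10410 to 13889. The high level ended at C1458, with 2067 reads, and was 957 reads at A1459. C1458 was 2.09-fold higher with ZAK-alpha-RBR (1.99 to 2.19), the second of the named single ratios. The third, C2072 near the end of the range, was 1.92-fold higher (1.82 to 2.03), with 1534 against 9212 reads. A further stretch around 1657, picked out after its values were seen, was close to it: G1657 had 1655 against 9989 reads, 1.91-fold higher (1.81 to 2.01).

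Lower stretches were more numerous. The rule called 7 lower regions in domain II, of 10 to 28 positions, out of 23 on all of 28S. They covered 119 positions, 15.3% of domain II, where lower regions took up 9.29% of 28S. Together they held 6.73% of the domain's coverage with ZAK-alpha-RBR and 14.2% in the mock. These regions were called for being lower, so this gap follows from the choice.

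By the rule, the lowest region was at 1708 to 1719, with 29.9 ppm with ZAK-alpha-RBR and 127 in the mock, 4.24-fold lower. Its averaged low point, C1714, had 178 against 9219 reads, 4.50-fold lower (3.88 to 5.24). Near its 3' end lay A1718, the lowest single ratio among the 775 positions with at least 100 reads in each library: 105 against 11786 reads, 9.74-fold lower (8.04 to 11.9). The ZAK-alpha-RBR depth there was among the thinnest of the domain, and its interval is the widest of the named positions. The call of this short region was lost with library totals as the baseline, a window of 31 positions or a minimum of 20. With that window its averaged log2 ratio went from -1.97 to -0.65, above the -1.18 at 1378 to 1401 and the -1.05 at 1770 to 1797, so it was then no longer the lowest.

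The region at 1770 to 1797, rich in A and U with 32.1% of G and C, had 54.3 against 139 ppm and was 2.55-fold lower. Its low point U1791 had 182 against 8211 reads, 3.92-fold lower (3.38 to 4.56), and A1793 was 4.35-fold lower (3.71 to 5.14). The region at 1378 to 1401 had 93.5 against 238 ppm and was 2.55-fold lower as well. There A1392 was 3.19-fold lower (2.92 to 3.49) and A1387, directly after a C, was 5.63-fold lower (4.99 to 6.37). At these low points the ZAK-alpha-RBR profile had a trough. The mock was above its domain mean of 183 ppm at 1378 to 1401 but below it at 1770 to 1797. There the mock was low as well, with 98.7 ppm at A1793.

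The remaining lower regions were shallower. The region at 1489 to 1501 was 2.47-fold lower, with 34.2 against 84.4 ppm, at a place where both libraries were thin. The regions at 1336 to 1345 and 1861 to 1874 were 2.17-fold and 2.22-fold lower. The region at 2013 to 2030 starts inside the GTPase-associated centre and was 2.18-fold lower, with 108 against 235 ppm. At a 3-fold limit 0 of the 7 were called, and with averaging over 31 positions 3 were. The region at 1336 to 1345 was also lost with library totals as the baseline and with a pseudocount of 10 ppm.

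The deepest coverage of domain II was the same stretch in both libraries. It began at 1722, shortly after 1719, the end of the region that was lowest by the main rule. With ZAK-alpha-RBR the coverage above 50% of its peak ran from 1722 to 1746, and in the mock from 1722 to 1751. The sequence is shown because it is the domain's maximum.
28S 1722 to 1746: aguuuuauccgguaaagcgaaugau
The peak with ZAK-alpha-RBR was U1734 with 3648 reads (534 ppm), where the mock had 45947 reads (583 ppm), a fold of 0.915 (0.884 to 0.946). The other top positions with ZAK-alpha-RBR were A1736 and G1733, and those of the mock were G1738, with 46231 reads, G1733 and U1734. Over 1722 to 1746 the means were 435 and 524 ppm, a log2 ratio of -0.27, close to the -0.21 of the domain's mean levels. This stretch held 8.85% of the domain's coverage with ZAK-alpha-RBR and 9.20% in the mock. Its 5' edge was sharp: from C1721 to A1722 the depth went from 284 to 2588 reads with ZAK-alpha-RBR, 9.11-fold, and from 17528 to 37893 in the mock, 2.16-fold.

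The segment taken for the GTPase-associated centre, from motif to motif, differed little in its mean between the libraries. Its mean was 231 ppm with ZAK-alpha-RBR and 254 in the mock, a log2 ratio of -0.14 (-0.21 to -0.07). The log2 ratio of the mean levels was -0.21 over the domain and -0.06 over 28S. The depth of the centre was 535 to 2678 reads with ZAK-alpha-RBR and 12756 to 26676 in the mock. None of its 45 positions was 2-fold higher with ZAK-alpha-RBR. At least 2-fold lower were 8 (17.8%), near the 18.2% of the domain and against the background of 10.7%. On the higher side were 17 (37.8%), where the share was 32.5% in the domain and 56.4% over 28S. The ratio was -0.33 when 10 positions were added on each side, -0.24 with scaling by the median of ratios and -0.07 with scaling within 28S. The added positions include 1964 to 1968, with a log2 ratio of -1.10, which pair with 2017 to 2021 in the fold predicted below. The value near 0 therefore holds for the segment between the motifs only.

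Inside the centre the profile was uneven, with a high middle and low edges. From 1978 to 2010 the means were 280 and 272 ppm, a log2 ratio of 0.04 (-0.03 to 0.11). The 4 positions before it, 1974 to 1977, had 97.6 against 166 ppm (-0.76). The positions after it, 2011 to 2015, had 84.8 against 214 ppm (-1.33), and 2016 to 2018 had 108 against 240 ppm (-1.15). The ZAK-alpha-RBR maximum of the segment was G1994, with 2678 reads (392 ppm) against 23333 (296 ppm), 1.32-fold higher (1.27 to 1.38). The mock maximum was U2003, with 26676 reads (339 ppm), where ZAK-alpha-RBR had 1898 reads (278 ppm). Of the loop motifs, AUGGAAG at 1978 to 1984 had 218 ppm with 203 in the mock, a log2 ratio of 0.10 (0.02 to 0.18). At GUGUAAC, 2004 to 2010, the levels were 217 and 281 ppm and the log2 ratio was -0.37 (-0.45 to -0.30).

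**Figure D3:**
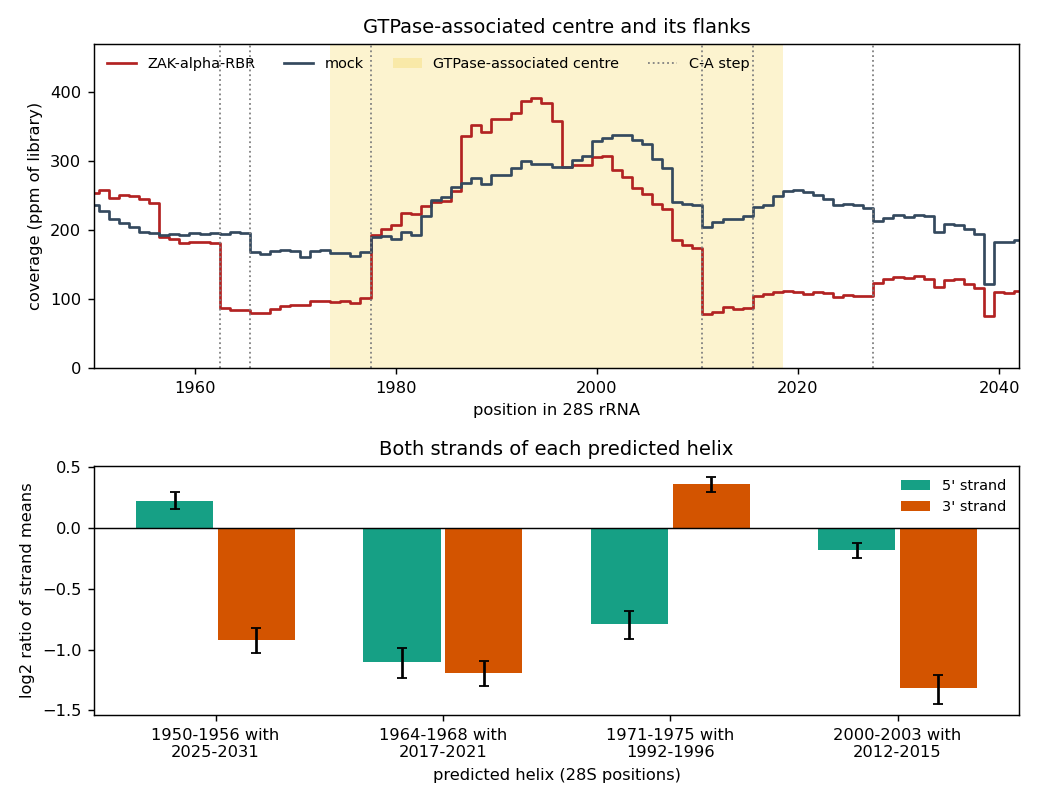
Top, coverage (ppm of the library) of both libraries across the GTPase-associated centre (shaded, 1974 to 2018) and 24 positions on each side, with dotted lines at each C followed by A. Bottom, the log2 ratio of mean coverage on the 5' and 3' strands of 4 helices predicted by RNAfold, with 95% counting intervals; in 3 of the 4 the intervals of the strands do not overlap.

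For the stretches above the centre was divided at each C followed by A, so the edges of the high middle are such steps by construction. Between C1977 and A1978 the ZAK-alpha-RBR depth went from 694 to 1319 reads and the mock depth from 13247 to 14938. Between C2010 and A2011 it went from 1194 to 535 reads, where the mock went from 18591 to 16178.

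In 3 of 4 predicted helices around the centre the strands had ratios whose counting intervals did not overlap. RNAfold was run on positions 1950 to 2042, a choice made after the profile was seen, and it predicted these helices of at least 3 pairs. The short stem of the hairpin that holds GUGUAAC pairs 2000 to 2003 with 2012 to 2015. Its 5' strand had a log2 ratio of -0.18 (-0.25 to -0.12) and its 3' strand -1.32 (-1.45 to -1.21). The stem at 1971 to 1975 with 1992 to 1996 had -0.79 on the 5' strand and 0.36 on the 3' strand. The outer stem at 1950 to 1956 with 2025 to 2031 had 0.23 and -0.92. The stem at 1964 to 1968 with 2017 to 2021 was low on both strands, with -1.10 (-1.23 to -0.99) and -1.19 (-1.30 to -1.09). The pairing is a prediction from sequence alone.

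Steep steps in coverage were more numerous with ZAK-alpha-RBR, and most of them were between C and A. Domain II holds 34 such places among its 778 junctions (4.37%). After dips at runs of equal bases were filled, 26 junctions had a step in depth of at least 1.41-fold with ZAK-alpha-RBR, and 20 of these (76.9%) were between C and A. In the mock 3 junctions passed this limit, all 3 between C and A. In the rest of 28S such places made up 77 of 170 steep junctions (45.3%) with ZAK-alpha-RBR and 16 of 83 (19.3%) in the mock. The step was the steeper one with ZAK-alpha-RBR at 28 of the 34 places. A preference for this step was known from earlier results of these data, so these counts are no separate evidence of it.

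**Figure D4:**
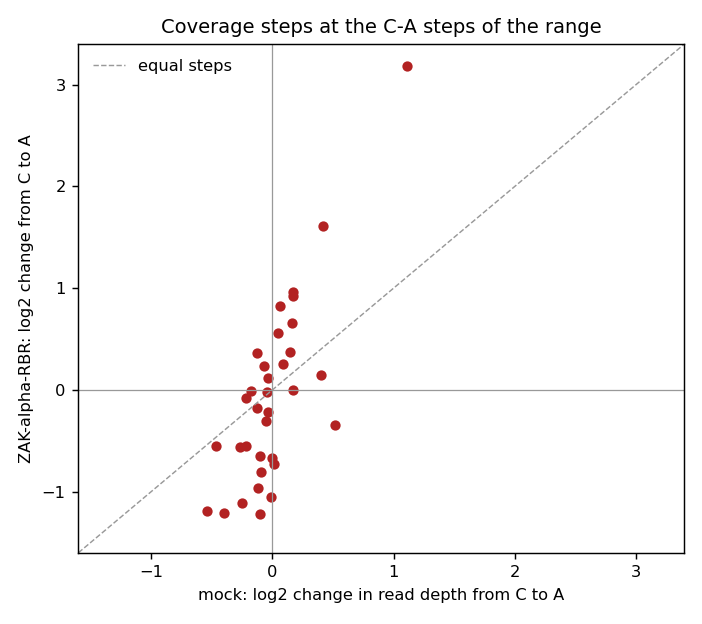
Each point is 1 of the 34 places of domain II where A follows C; the axes give the log2 change in read depth from the C to the A, horizontally in the mock and vertically with ZAK-alpha-RBR, after dips at runs of equal bases were filled. Points farther from 0 on the vertical than on the horizontal axis, 28 of the 34, have the steeper step with ZAK-alpha-RBR; the highest is the step from C1721 to A1722.

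All 7 lower regions held at least 1 such place, 10 in all, and the higher region at 1627 to 1637 held none. For comparison, 46.5% of all windows of 14 positions in domain II, the median length of the lower regions, and 35.7% of those on 28S hold a C followed by A. The shares depend on length: they were 34.9% and 26.9% at 10 positions, and 71.9% and 57.4% at 28 positions. The match describes these sequences and says nothing of what cut the RNA. The part of such places and of the depth difference in the lower regions was not tested.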

How the data were processed

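RNA from 2 pull-downs in U2OS cells was joined to adaptors by an engineered plant tRNA ligase and read on an Ion Proton, per the labels' protocols. The tools listed in the submitters' processing notes are cutadapt 2.0 and Bowtie2 2.3.4.1. Not given in the sources used here are the reference, the strand handling and how duplicates and multiply mapping reads were treated.

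Per the file headers, the deposited values are normalized reads per position, a coverage signal. Both columns sum to 78749474. Every ZAK-alpha-RBR value was, within 0.001 of a read, a whole multiple of 11.5; dividing by this step gave the depth before scaling, which sums to 6835941. Mock values were whole as deposited.

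Python 3.11.15, numpy 2.4.6, pandas 2.3.3, scipy 1.17.1 and ViennaRNA RNAfold 2.7.2 were used. Intervals are exact Poisson or Clopper-Pearson at 95%. Those of segment ratios use the rounded mean depth as the count. The share intervals take the deepest position of 28S, 4138 and 50397 reads, as the number of reads. The limits of the ratio of shares combine opposite ends of these intervals and are not themselves a 95% interval. Within runs of at least 2 equal bases, dips were filled to the lower flanking value. The region rule was run on simulated data with longer planted changes than the regions called here and with independent counts at each position. Because the data differ in both, the simulation is no check of these calls. Named were all called regions, the 3 positions of highest coverage per library, the 3 highest and lowest single ratios at least 15 positions apart, the GTPase-associated centre, and the 3 highest and lowest bins. The range, rules and motifs were chosen with earlier results of these data known. Alternatives covered scaling, pseudocount, depth filter, range, window, fold limit, baseline, length and dips.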

Additional observations from a re-analysis of the deposited data

How the results depend on the processing

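The share of domain II stayed lower with ZAK-alpha-RBR under all 4 alternatives run. The log2 ratios ran from -0.06 (range widened) to -0.21 (share of both rRNAs), inside the limits given for the main ratio. The counts of positions at least 2-fold higher (15 to 26) and lower (116 to 163) stayed within 1.5 times of 20 and 142, including filled dips and limits set from the median of 28S, which were chosen after seeing the data. The region counts depend on the rule by its construction. The higher region numbered 0 with a window of 31 positions, a 3-fold limit or a minimum of 20 positions, and 2 with a 1.5-fold limit. Lower regions numbered 3 with the window of 31, 12 with the 1.5-fold limit, 0 with the 3-fold limit and 2 with at least 20 positions. With library totals as the baseline 5 of the 7 were found again, without 1336 to 1345 and 1708 to 1719, and with a pseudocount of 10 ppm 6, without 1336 to 1345. The log2 ratio of the GTPase-associated centre was -0.24 with the median of ratios and -0.33 with the segment widened by 10 positions. The widened segment takes in low positions on both sides, some of them predicted to pair with it. Of 88 values recomputed for the 18 named regions and positions, 0 changed sign, but 30 moved by more than their counting error. The named regions and extreme ratios were picked for lying far from the mock, so unchanged signs are no support for them. Scaling by the median of ratios moved the median log2 ratio of all positions from 0.10 to -0.00005. No paired analysis was possible because each group has 1 library, and no replicate could be left out. A depth of 49 reads limits the thinnest position.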

Other observations

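Narrow dips marked runs of equal bases in both libraries. At G1358, the first of 5 G, the depth was 83 reads with ZAK-alpha-RBR between 903 and 898 at its neighbours, and 2625 reads in the mock between 9923 and 8608. At C1710, the first of 5 C, it was 49 reads between 237 and 223, and 2066 between 10412 and 9507. C1710 lies in the lower region at 1708 to 1719, which was also called, from 1707 on, after such dips were filled.

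By base, the median log2 ratio in domain II was -0.33 at A, -0.24 at U, -0.19 at C and -0.18 at G. In the rest of 28S it was -0.15 at A, -0.03 at U, 0.35 at C and 0.31 at G, so the gap between domain II and the rest was larger at C and G than at A and U. Neighbouring positions share reads, and these medians are descriptions.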
